A study of Mus musculus with 15 samples.

Results

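Of the 2191 probes in the deposited value table, 245 had a mean of at least 7 log2 over its 15 columns. Of those, 72 (29.4% of the abundant probes, 3.29% of the table) stayed within set limits of change from naive cells through activation, rest and restimulation. These 72 members were selected on the deposited values themselves. The largest minus the smallest of their 8 group means was below 1.2 log2, and their differences from naive cells at 24 h and at 65 h both lay above -1 and below 1. None of the probes left out of the selection by number met every limit (0 probes). A further 1773 probes met the limits of change but lay below the level of 7. The stability described here is therefore a property of the choice, and the members' levels, ranges and differences are given as a description, with no test.

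The study followed microRNA in CD4 T cells of C57/B6 mice, 6 to 8 weeks old, isolated from spleen and lymph nodes with CD4-coated magnetic beads. Naive cells received no treatment by their titles and treatment labels (the source label of all 15 samples reads as activated, these 2 included), and the other cells were grown on immobilised antibodies against CD3, which signals for the T cell receptor, and against the costimulatory receptor CD28, for 6, 12, 24, 42 or 65 h. A further group was activated for 65 h, taken off the antibodies and rested in medium with IL-2 until day 7, and cells rested in that way were put back on the antibodies for 18 h. Each group had 2 one-colour arrays, except the day 7 group with 1, and the arrays lay on 2 slides. All of the activation was done in culture, the labels name no selection beyond the CD4 beads, and they leave unsaid if 2 arrays of the same kind stand for different animals or cultures, so the spread between them may be technical.

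MicroRNAs are short non-coding RNAs that guide Argonaute proteins to messenger RNAs and lower their stability and translation. Activation of CD4 T cells is known to remodel the microRNA pool, with some members induced and others lost as the cells leave quiescence. Small RNAs whose measured level stays nearly constant are commonly used as references against which the others are normalised. No table used here pairs the probe identifiers with microRNA names, so the members are given by identifier, without sequence, family or role, and the lists of reference small RNAs, of microRNAs abundant in lymphocytes and of markers of other cell types could not be read on them. In RNA from whole cultures, fewer cells of a type and less RNA per cell cannot be told apart.

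The first 42 h array stood apart. It had 49.9% of its spots marked as non-uniform, its median spot read 466 against 21 to 23 on the other 14 arrays, and its column in the value table followed its own scanner values with a Spearman correlation across probes of 0.459, against at least 0.999 on every other array. That column correlated with the second 42 h column at a Pearson coefficient of 0.990 across probes. Values from the table below include this column, and leaving it out gave 72 probes, of which 68 were members. Values from the scanner signals are of the other 14 arrays, so the 42 h group then has 1 array.

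The members spanned nearly the whole range of the abundant probes. Their mean deposited values ran from 7.08 to 17.09, with a median of 9.60, and 8 of the 10 probes with the highest means in the table were members. By level, 25 members lay between 7 and 8.5, 19 between 8.5 and 11, 20 between 11 and 14, and 8 at 14 or more. The range of their group means had a median of 0.84 and ran from 0.39 to 1.18, and 56 of them stayed below 1. Over the other 173 abundant probes the median range was 1.93. Of these 173 probes, 45 exceeded the range limit alone, 6 the limits at 24 or 65 h alone, and 122 both.

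At the edges of the selection the values ran on without a gap. The lowest means inside were 7.08, 7.10 and 7.10, and the nearest below the level limit among probes that met the others were 6.96, 6.93 and 6.89. The widest ranges inside were 1.18, 1.16 and 1.16, and the narrowest outside were 1.26, 1.27 and 1.30. The largest differences at 65 h inside were 0.91, -0.91 and -0.88, and the nearest outside were 1.01, 1.01 and -1.14. At 24 h the largest inside were -0.86, 0.82 and 0.77, and 0 probes were held out by that limit alone.

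**Figure D1:**
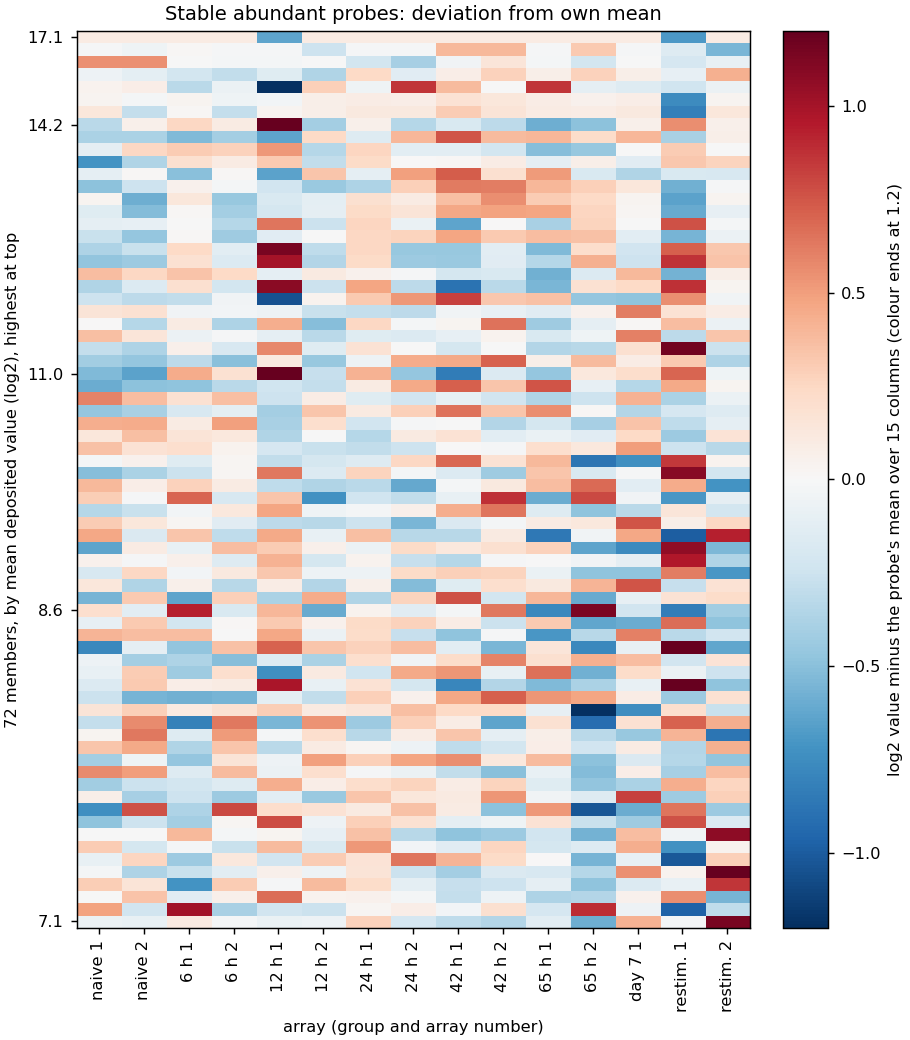
Each row is 1 of the 72 members, ordered by mean deposited value with the highest at the top, and each column is 1 of the 15 arrays. Colour gives the log2 value minus the probe's own mean (the scale ends at 1.2 in both directions); most cells are pale, and the first array of the restimulated group holds the highest or lowest value of 26 members.

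The brightest probe of the table, UCSF033_002455, had the smallest range of any member in the deposited values, 0.39. In scaled scanner signals it was 1.94 above naive on the single 42 h array used and 1.42 above at 65 h. Its deposited value was 17.19 on 13 of the 15 arrays, the maximum of each of those columns. It was 16.46 on the first 12 h array, where the column maximum was 17.13, and 16.41 on the first restimulated array, where it was again 17.19, so on those 2 arrays another probe ranked above it. In the scanner files its signal, an intensity with background subtracted, lay between 130355 and 174273, well under the saturation values of 622802 to 628075, and no spot of any probe was saturated (0 spots).

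UCSF033_002056, among the 5 members of highest mean, had the narrowest spread over single arrays, 0.78. Its deposited values were 15.50 and 15.44 in naive cells, 15.34 and 15.27 at 6 h, 15.41 and 15.20 at 12 h, and 15.80 and 15.43 at 24 h. They were 15.64 and 15.84 at 42 h, 15.63 and 15.84 at 65 h, 15.63 at day 7, and 15.46 and 15.99 after restimulation. The 6 h and 12 h arrays all lay below both naive arrays and the 42 h, 65 h and day 7 arrays above them, while the 24 h and restimulated pairs overlapped the naive pair.

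UCSF033_000320 stayed close to its mean in both scalings used here. Its deposited values were 10.15 and 10.38 in naive cells and 9.58 and 10.19 after restimulation, with every other array between 9.66 and 10.26. The range of its group means was 0.43 in the value table and 0.50 in scaled scanner signals, the smallest scaled range of the 72. Before any scaling the same range was 2.05, with 1485 and 2194 in naive cells against 864 and 429 at 65 h.

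Some members moved in order with time while staying within the limits. UCSF033_001163 was 7.31 and 7.02 in naive cells, 7.00 and 7.02 at 6 h, 7.46 and 7.28 at 12 h, and 7.86 and 7.63 at 24 h. It was 8.04 and 8.29 at 42 h, 8.10 and 8.05 at 65 h, 7.67 at day 7, and 7.14 and 7.76 after restimulation. Its 24 h, 42 h and 65 h arrays all lay above both naive arrays, while its restimulated arrays overlapped them.

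In the deposited values UCSF033_001725 went the other way and was already lower at 6 h. It read 16.41 on both naive arrays and between 15.46 and 16.00 on all 13 others, with 15.86 and 15.84 at 6 h and its lowest values, 15.63 and 15.46, at 24 h. The range of its group means, 0.86, was 9.42 times its standard deviation within groups (0.09). The 2 naive values were identical, which lowers this standard deviation. No array of another group reached the naive level in the deposited values. The scaled scanner signals did not show this fall. There the naive arrays were 5.81 and 5.06, with 5.65 and 4.83 at 6 h and 5.69 and 5.23 at 24 h. The 42 h and day 7 arrays, at 6.27 and 6.39, lay above both naive arrays.

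UCSF033_001262 formed a shallow dip followed by a rise. It was 9.56 and 9.39 in naive cells, 9.01 and 8.72 at 24 h and 9.36 and 9.39 at 65 h, and its highest value, 10.01, came from the single day 7 array. The 3 consecutive probes UCSF033_000610, UCSF033_000611 and UCSF033_000612 all had their highest group mean at 42 h. The middle of them was 12.07 and 11.69 in naive cells, 12.67 and 12.69 at 42 h, 12.68 and 12.47 at 65 h, and 11.61 and 12.11 after restimulation.

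For most members the group means differed by a small multiple of the spread between arrays. The standard deviation between arrays of a group had a median of 0.35 over the members, close to the 0.37 of the other abundant probes. The range of group means was a median of 2.22 times this standard deviation over the members, 5.57 times over the other abundant probes and 3.48 times over the 741 tested probes of the value table. Since the selection limited the range, the lower multiple of the members is part of how they were chosen, whereas the spread between arrays of a group was not limited directly.

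**Figure D2:**
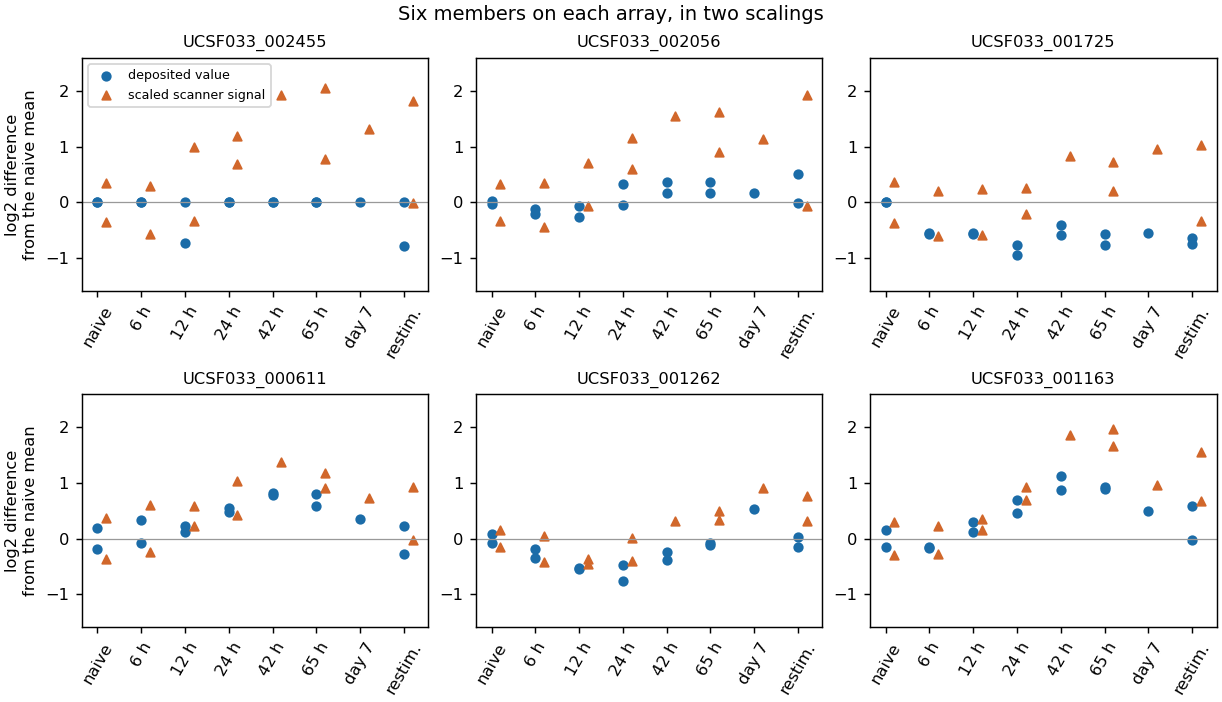
Log2 difference from the naive mean (vertical axis) by group (horizontal axis) for 6 members, with circles for deposited values and triangles for scanner signals divided by the 75th percentile of their array. The circles of UCSF033_002455 lie at 0 on 13 of 15 arrays while its triangles spread over a range of group means of 2.07, and for UCSF033_001725 the circles, but not the triangles, lie below 0 in every group after naive.

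Single arrays varied more than the group means. Over the 15 arrays the highest minus the lowest value of a member had a median of 1.30 and ran from 0.78 to 2.33. It was under 1.2 for 26 members and over 2 for 5. For the other abundant probes the same median was 2.46, and 0 of them were under 1.2. The spread over single arrays cannot be smaller than the range of group means, which the selection limited to below 1.2. For most of the other abundant probes that 0 was therefore fixed by the selection, and the contrast is a description only.

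The gap between the 2 arrays of a group depended on the group. Its median over the members was 0.21 in naive cells, 0.25 at 6 h, 0.28 at 24 h and 0.25 at 42 h, and it was 0.33 at 65 h, 0.40 at 12 h and 0.61 after restimulation. More than 1 log2 separated the pair for 17 members after restimulation, 11 at 12 h, 8 at 65 h, 5 at 6 h and 1 in naive cells, and for 0 at 24 h and 42 h. The first restimulated array alone held the highest value of 12 members and the lowest value of 14. The restimulated mean of those 17 members was thus an average of unlike arrays.

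The pairs also differed by slide. In the 6 groups with an array on each slide, the 42 h pair set aside, 15 of the 72 members were higher on the same slide in all 6, of which 9 were higher on slide 1 and 6 on slide 2. This was 20.8% of the members, against 26.6% of the other abundant probes and 20.8% of the 741 tested probes. The mean offset between slides exceeded 0.5 log2 for 12 members and exceeded the member's own range of group means for 3. UCSF033_002061 was 8.00, 7.93, 8.18, 8.20 and 7.96 on the slide 1 arrays of naive, 6 h, 12 h, 24 h and 65 h cells. On slide 2 it was 8.88, 8.85, 9.01, 8.83 and 8.96 in the same groups. The 2 slides did not overlap in these groups, and the group means, which average both slides, differed by only 0.45. Its restimulated arrays were 8.79 on slide 1 and 8.74 on slide 2.

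Probes were also chosen on 1 slide and read on the other, so that no array entered both steps. Both slides come from the same deposited value table, whose computation is not stated. The 2 steps may therefore not be independent, and the shares are given as a description. With the same limits applied to the 6 groups on slide 1, 59 of 230 abundant probes were chosen, and 47 of them (79.7%) were also inside the limits on slide 2. There 36 of the 171 probes not chosen (21.1%) and 36.1% of all the abundant probes were inside. Chosen on slide 2, 85 of 232 abundant probes gave 48 (56.5%) inside on slide 1, against 14 of 147 not chosen (9.52%) and 26.7% of all. The 72 members were chosen on means over both slides, so their own counts by slide are a description only: 50 were inside on slide 1, 59 on slide 2 and 43 on both. At 65 h, likewise as a description, the difference from naive had the same sign on both slides for 49 members, and for 159 of the other 173.

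Every group was the peak of some members. The highest group mean fell at 42 h for 22 members, after restimulation for 17, at day 7 for 10, in naive cells for 7, at 24 h for 6, at 12 h for 5, and at 6 h and at 65 h for 2 each, with the brightest probe tied in 6 groups. The lowest fell at 65 h for 13 and after restimulation for 13, in naive cells for 11 and at day 7 for 11. Naive cells held the highest mean of 9.72% of the members and of 36.4% of the other abundant probes. The selection limited these same group means, falls from naive at 24 h and 65 h included, so these shares are a description only. The day 7 counts rest on 1 array.

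In the value table the members lay evenly around the naive level. Their median difference from naive through the course was -0.02 (6 h), 0.03 (12 h), 0.13 (24 h), 0.11 (42 h), -0.00 (65 h), 0.08 (day 7) and 0.07 (restimulated). Between 33 and 44 of the 72 were above naive in each group. All of these differences share the naive arrays.

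The scanner signals, scaled here by dividing each array by the 75th percentile of its probes detected on all 14 arrays, gave another picture. Of the 72 members, 29 (40.3%) met the same limits of change there, against 14 of the other 173 abundant probes (8.09%) and 238 of all 933 tested probes (25.5%). These signals come from the same arrays as the selection, and the other 173 had failed the limits in the deposited values. The shares are therefore a description only. For the members the median difference from naive became 0.00 (6 h), 0.22 (12 h), 0.38 (24 h), 0.67 (42 h), 0.60 (65 h), 0.50 (day 7) and 0.74 (restimulated). Over all 933 tested probes the medians were -0.04, -0.03, 0.00, 0.32, 0.59, 0.29 and 0.37 in the same order. At 65 h the members' median was thus close to that of all tested probes, and 64 of the 72 members were above naive, against 617 of the 933 tested probes. The selection had left out probes whose deposited values fell or rose by 1 log2 or more at 65 h. These counts are therefore a description as well.

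**Figure D3:**
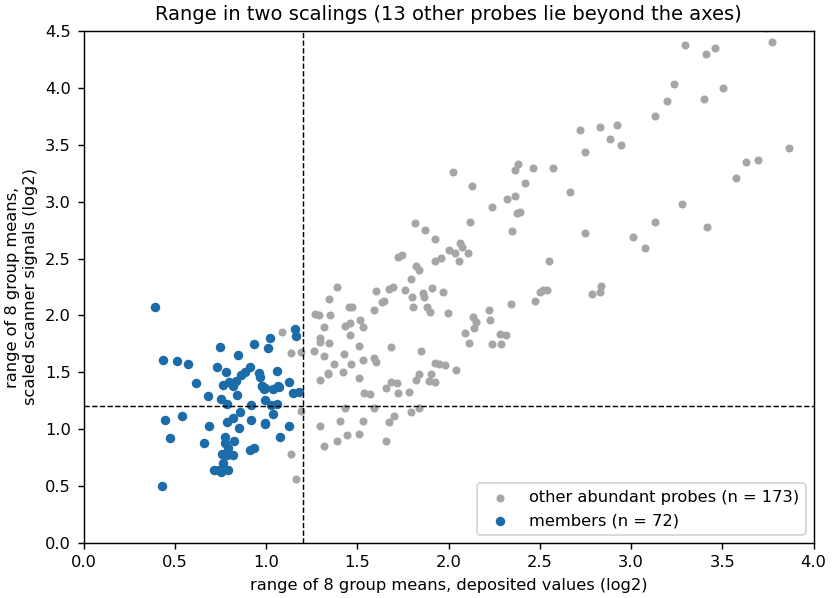
Range of the 8 group means in the deposited values (horizontal axis, log2) against the range in scaled scanner signals (vertical axis, log2) for the 72 members and the other 173 abundant probes; broken lines mark the limit of 1.2. All members lie left of the vertical line, where the selection put them, and their scaled ranges run from 0.50 to 2.07 with a median of 1.28.

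Before scaling the members were dimmer than in naive cells by the median of each group, though single arrays overlapped. On the naive arrays the median log2 signal of the members was 9.79 and 10.23. It was higher on the second 6 h array (10.27) and the first restimulated array (10.37). On the second restimulated array it was 8.54, and all remaining arrays lay below 10.23. By group, the members' median log2 signal differed from naive by -0.07 (6 h), -0.32 (12 h), -0.71 (24 h), -1.38 (42 h), -0.85 (65 h), -0.92 (day 7) and -0.42 (restimulated). Over all tested probes these medians were -0.14, -0.63, -0.998, -1.57, -0.74, -1.04 and -0.72. Members and other tested probes were thus both lower in every group by the median. The cause was not tested. Without scaling 17 members met the limits of change. With quantile normalisation 52 did, with the percentile taken over all probes 54, and with median centring 46. The limits held in all 4 scalings for 21 members and in none for 5, and 0 of the 21 also met them without scaling.

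The dependence on scaling followed the level. Among the 8 members at 14 or more, 6 met the limits without scaling and 2 after it. Among the 25 between 7 and 8.5, 3 met them without scaling and 12 after it. The unscaled range had a median of 0.71 in the brightest class, 1.5 between 11 and 14, 1.56 between 8.5 and 11, and 1.93 between 7 and 8.5, while the scaled range went the other way, 1.59, 1.33, 1.21 and 1.14. Over the 14 arrays the median unscaled signal of the brightest class moved between 15.15 and 15.94 log2, and that of the dimmest class between 6.00 and 8.21. The only 2 other abundant probes at 14 or more had a median unscaled range of 2.01.

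**Figure D4:**
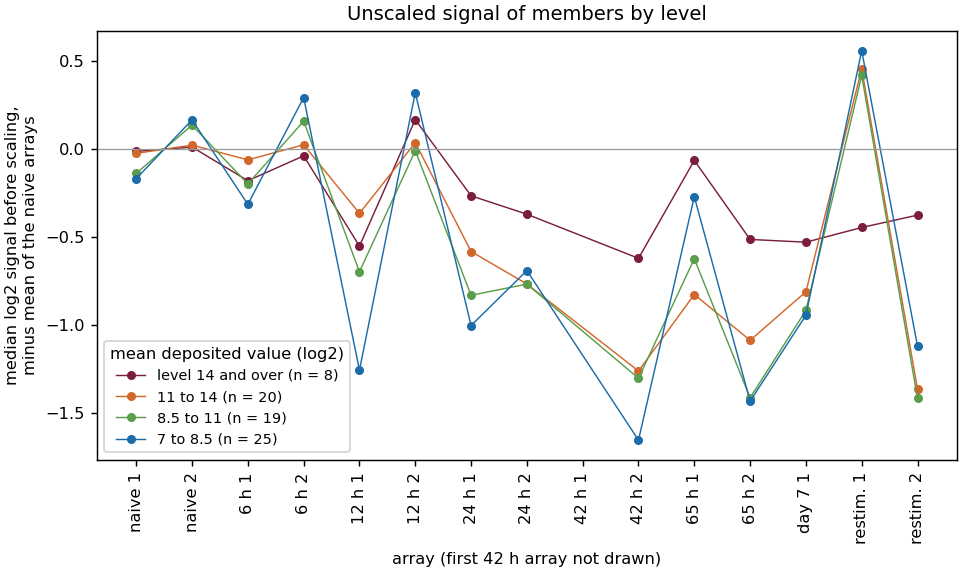
Median log2 scanner signal before scaling of the members in 4 classes of level, minus the mean of the naive arrays (vertical axis), on 14 arrays (horizontal axis). The line of the 8 brightest members spans 0.79 log2 and that of the 25 dimmest 2.21.

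The members were detected throughout, with little spread between the spots of an array. All 72 were detected on all 14 arrays, as were 171 of the other 173 abundant probes and 571 of the 933 tested probes. A member had 6 spots (27 members) or 7 (45 members). Probes with 7 spots were 62.5% of the members, 68.8% of the other abundant probes and 55.0% of the value table. The coefficient of variation between the spots of a member on an array, without outlier spots, was taken as its median over the 14 arrays. This value had a median of 3.80% over the members and ran from 1.11% to 7.84%, against a median of 4.21% for the other abundant probes. Single arrays can lie above it. Read as this median, the spread between spots was small beside the differences between arrays of a group.

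Some members sat beside each other in the numbering of the design. There were 10 pairs of consecutive numbers, which held 19 members. The same count was not made for the other abundant probes, so nothing is read from it about the set. The largest difference between the centred group profiles of a pair had a median of 0.25 log2. It ran from 0.07 to 0.77, so some neighbours had nearly the same course and others did not. Whether neighbours detect related sequences was not tested.

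The moderated test of limma, with Benjamini-Hochberg adjustment over all tested probes at 0.05, was run on every contrast, but the selection used these contrasts, so its counts describe the members only. The test over all groups called 4 of 72 members in the scaled scanner signals, where it called 25.2% of all tested probes, and 7 in the value table, where it called 28.6%. At 24 h against naive it called 0 members in the scanner signals (background 9.97%; at an unadjusted p under 0.05 it called 9 of 72 members and 219 of 933 tested probes) and 4, all lower, in the value table (background 13.4%). At 65 h it called 9, all higher, in the scanner signals (background 33.3%), and 4 higher and 6 lower in the value table (background 33.2%). After restimulation it called 11, all higher, in the scanner signals (background 38.0%), and 2 higher and 3 lower in the value table (background 32.3%).

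The direction of the called members therefore differed between the scaled scanner signals and the value table. The fits of these also differed in arrays (14 and 15) and in probes tested (933 and 741), and the cause was not tested. UCSF033_001027 and UCSF033_001163 were the only members called at 65 h in both, and both were higher. In scaled signals UCSF033_001163 differed from naive by 1.82 ± 0.36 (standard error of the fit) and UCSF033_001027 by 1.38 ± 0.32, and in the value table by 0.91 ± 0.22 and 0.87 ± 0.28. UCSF033_001725, called lower at 24 h in the value table at -0.86 ± 0.15, differed by 0.03 ± 0.55 in scaled signals. With the slide as a block the scaled signals gave 17 members over all groups, 10 at 24 h, 19 at 65 h and 27 after restimulation, all of the last 3 counts higher, where 45.4%, 26.4%, 50.3% and 52.5% of all tested probes were called. The members' shares were 23.6%, 13.9%, 26.4% and 37.5%. All 15 arrays together gave 0, 0, 1 and 1 members in the same order, with 7.08%, 0.215%, 15.1% and 14.5% of all tested probes called.

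Several of these counts rested on single arrays. Over all groups the 4 calls became 1 without either naive array, either 6 h array or the second 24 h array, 0 once the first 24 h array was dropped, and 9 and 7 without the first and second restimulated array. The 0 at 24 h became 1 without the first 6 h array, 3 without either 12 h or either restimulated array, and 2 without either 65 h array. The 9 at 65 h became 4 and 3 without the first and second naive array and 5 without the second 65 h array. The 11 after restimulation became 1 without either naive array, 6 and 5 without the first and second 6 h array, and 7 without either 24 h array. The share of all tested probes called moved too when single arrays were dropped, from 16.0% to 33.8% over all groups, 0% to 15.8% at 24 h, 21.2% to 37.9% at 65 h and 17.7% to 38.4% after restimulation.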

How the data were processed

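RNA (50 ng, per the series' design text) was labelled with Cy3 and hybridised to 15 one-colour Agilent arrays, per the labels. The deposited scanner files hold spot intensity with background subtracted, from the Agilent scanner software, whose version is 10.1.1.1 per the file headers and 10.6 in the submitters' processing notes, and flags for spots above background. The deposited value table holds log2 values per probe. Nothing read here states how the authors computed it. The medians of its columns ran from 4.38 to 4.41, and the exact scale and the centring are unknown. Identical values recurred across its columns and probes. For example, 16.41 was read for UCSF033_001725 on both naive arrays and for UCSF033_001746 on both 42 h arrays. It was also read for UCSF033_002455 on the first restimulated array. Whether the values of bright members are fixed by their rank in the column was not tested. All 15 columns were matched to samples.

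Scanner signals were averaged over a probe's spots without control and outlier spots, divided by each array's 75th percentile over 571 probes (those detected on each of the 14 arrays), floored at 0.582% of it (the 5th percentile among detected values) and then put on the log2 scale. Detection meant that over 50% of the spots stood well above background, and a probe was tested when detected on every array of a group. That left 933 probes, and 741 in the value table. Differences were tested with limma 3.58.1 in R 4.3.3 (group as the only term, 6 residual degrees of freedom, Benjamini-Hochberg adjustment at 0.05). The procedure was tested on simulated data. The number of arrays limits the precision.

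The members and lists were chosen with earlier results of these data known. Probes named are those of highest mean, smallest and largest range, at the limits, called over all groups (the 5 of smallest adjusted p if more), or in a run of 3 consecutive numbers. Identifiers of called probes were held to few, because no table used here names them. For the same reason the lists of reference small RNAs, of lymphocyte microRNAs and of T cell, myeloid, erythroid, endothelial, liver, muscle, brain and epithelial markers were not tested. Alternatives changed scaling, background correction, filter, slide block, limits and arrays.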

Additional observations from a re-analysis of the deposited data

How the results depend on the processing

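The set kept within 1.5 times its size of 72 with a mean limit of 6.5 (85) or 7.5 (56), a range limit of 1.0 (56) or 1.4 (85), no limit at 24 and 65 h (78), quantile-normalised scanner signals (58, of which 52 were members) and single arrays left out (61 to 75). The same rule gave 44 probes in scanner signals scaled to the 75th percentile (29 of them members) and 33 in unscaled signals (17 of them members). The 29 members inside the limits in scaled signals became 54 with the percentile over all probes, 52 with quantile normalisation, 46 with median centring, 17 with no scaling and 23 to 30 without single arrays. Replicate numbers followed only the deposit order and pair no arrays, so the slide was the block: members called rose from 4 to 17 over all groups, from 0 to 10 at 24 h, from 9 to 19 at 65 h and from 11 to 27 after restimulation, while the share of all tested probes called rose from 25.2% to 45.4%, 9.97% to 26.4%, 33.3% to 50.3% and 38.0% to 52.5%. Over all groups the 4 calls became 0 with all 15 arrays, the all-probe percentile, no scaling or normexp, 1 with quantile normalisation or no filter, 7 in the value table and 14 (19.4%) where the other 42 h array was left out, a setting that called 80.8% of all tested probes. The share of all tested probes called was 7.08% with all 15 arrays, 19.5% with the all-probe percentile, 6.11% with no scaling and 13.5% with normexp. It was 25.1% with quantile normalisation, 5.88% with no filter and 28.6% in the value table. At 24 h, quantile normalisation gave 1 and the value table gave 4. At 65 h the 9 calls became 1 with all 15 arrays or no scaling, 2 with normexp, 3 with the all-probe percentile, 4 with the other 42 h array and 5 with quantile normalisation or no filter. There the share of all tested probes called was 15.1% with all 15 arrays, 14.3% with no scaling, 21.4% with normexp and 29.0% with the all-probe percentile. It was 7.6% with the other 42 h array, 30.2% with quantile normalisation and 7.88% with no filter. After restimulation the 11 became 1 with all 15 arrays, the other 42 h array or no filter, 0 with no scaling, 3 with the all-probe percentile, 4 with quantile normalisation, 5 in the value table and 6 with normexp. The shares of all tested probes were then 14.5% with all 15 arrays, 6.69% with the other 42 h array, 6.64% with no filter and 10.9% with no scaling. They were 27.9% with the all-probe percentile, 30.8% with quantile normalisation, 32.3% in the value table and 25.8% with normexp. Leaving out single arrays gave 0 to 9 over all groups, 0 to 3 at 24 h, 3 to 13 at 65 h and 1 to 16 after restimulation. The shares of all tested probes called without single arrays are given above. The cause of these changes was not tested. Of the ranges of the 26 named members under these settings, 381 moved by less than the spread between arrays and 61 by more, 17 of them under 75th percentile scaling and 16 without scaling.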
